A study of Homo sapiens with 9 samples.

Results

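The BCL2 family decides whether mitochondria release the factors that start apoptosis, and 10 of its genes were followed here across cells carrying different forms of the kinase MEK1. The genes were chosen by name: 7 BH3-only death genes (BCL2L11, BMF, BAD, BIK, HRK, PMAIP1 and BBC3) and 3 survival genes (MCL1, BCL2 and BCL2L1). They are 10 of the 38553 gene names on the array, and 16 probes in 34 spots carried one of these names. All 10 genes passed the filter on dim signals and were among the 19207 genes tested.

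BH3-only proteins are the sensors of the family. They bind and neutralise the survival proteins, or activate BAX and BAK directly, which then open pores in the outer mitochondrial membrane. MEK1 activates ERK, and ERK signaling is known for acting on this family after translation: phosphorylated BIM, the product of BCL2L11, is marked for destruction, and phosphorylated MCL1 is stabilised. The values below are mRNA levels and carry no information on these protein steps.

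The cells were HEK293, a human embryonic kidney line that carries adenovirus E1A and E1B genes, the latter with a viral relative of BCL2 among its products. Each of 3 stable lines expressed HA-tagged MEK1 from a plasmid under puromycin selection, as the wild-type kinase (WT cells), as the RASopathy-associated mutant F53S or as the cancer-associated mutant K57N. All lines kept their own MEK1 gene, and WT cells, which overexpress the normal kinase, served as the control. RNA was taken in steady-state culture in 3 experiments per line, giving 9 arrays. The cell line label of every array is HEK293, but the source names of WT replicates 2 and 3 read HEK294 and HEK295, and both were used here as HEK293 WT arrays. Each mutation is represented by 1 stable line, so differences between the lines other than the mutation cannot be told apart from it. In bulk RNA, fewer cells of one kind and less RNA per cell cannot be told apart either.

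The 9 arrays lay on 2 slides. Slide 1 held replicate 1 of each line and slide 2 held replicates 2 and 3. The 75th percentile of the spot signal was 245 to 376.25 on slide 1 and 695 to 821 on slide 2, and the number of arrays limits the precision of every value. Levels are given as the log2 of a probe's signal relative to this percentile of its own array. Because the slides differed, limma fits were run that leave the slide out and that hold it as a term. Some tests are given from only 1 of these fits. A gene is called where the probe that stands for it has an adjusted p below 0.05. The adjustment is that of Benjamini and Hochberg over all probes tested. The median standard error of a difference between lines was 0.29 log2 units without the slide and 0.13 with it. Of the HEK293 markers, VIM, CDH2, LHX1 and NEFL were well above background on 9 arrays, PAX2 and EYA1 by 1 of 2 probes each, and NEFM on 6 arrays. Among markers of other cell types ALB and KRT5 were on 0 arrays, MYOD1 and 1 of 5 PTPRC probes were on 9, another PTPRC probe was on 3, CD3E was on 7 and 1 of 3 PECAM1 probes was on 2. The labels were checked with 2 further genes. MAP2K1, which encodes MEK1, measured 2.34 to 2.42 in WT cells, 2.39 to 2.50 in F53S cells and 2.81 to 2.92 in K57N cells. DUSP6, a phosphatase induced by ERK, measured -3.33 to -1.70, 0.49 to 0.65 and 3.86 to 4.06 in the same order.

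To ask which family members follow the oncogenic mutant, K57N cells were compared with WT cells. Levels of PMAIP1 and MCL1 were higher with K57N, whereas BMF, BBC3 and BCL2L1 were lower, so that death and survival genes were found on both sides. Without the slide in the fit 1 of the 10 genes was called, PMAIP1, against 2.77% of all genes tested (1.74% higher and 1.03% lower). With slide as a term 5 of 10 were called, 2 higher and 3 lower, against 19.4% of all genes (8.58% higher and 10.8% lower). The fit with the replicate number as a block called the same 5, where 14.8% of all genes were called. The median difference was -0.38 over the 7 BH3-only genes and 0.09 over the 3 survival genes, compared with -0.06 over all genes.

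**Figure D1:**
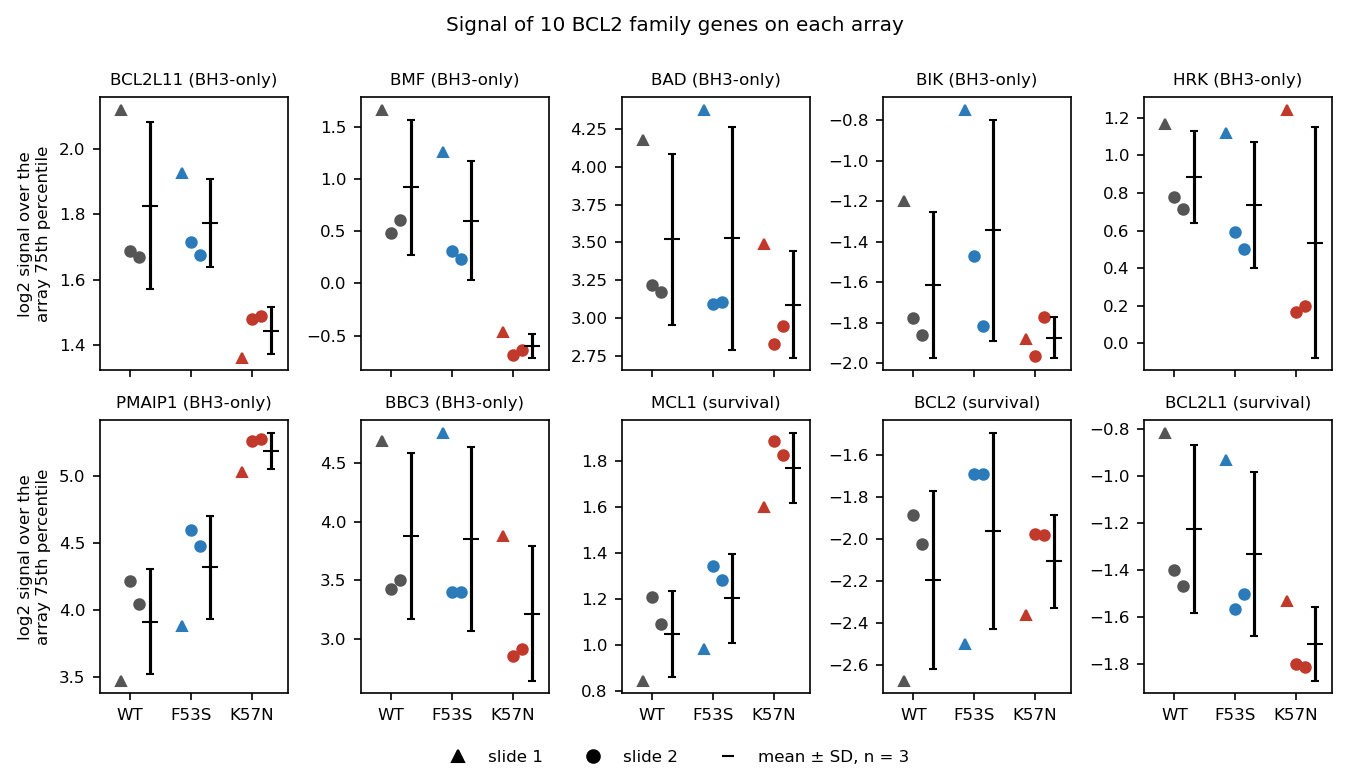
Level of each of the 10 genes on each array, as log2 signal relative to the array's 75th percentile (vertical axis, own range in each panel), for WT, F53S and K57N cells. Triangles are slide 1, circles slide 2, and bars the mean ± SD of 3 arrays; for PMAIP1 the K57N arrays lie at 5.03 to 5.28, above all WT and F53S arrays.

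PMAIP1 encodes NOXA, a BH3-only protein that binds MCL1 and promotes its degradation. Its probe lies at chr18:57570691-57570750 of hg19 on the plus strand. The log2 level was 3.47, 4.22 and 4.05 in WT replicates 1 to 3, 3.88, 4.60 and 4.48 in F53S cells, and 5.03, 5.26 and 5.28 in K57N cells. Every K57N array was above every WT and F53S array, while the WT and F53S arrays overlapped. PMAIP1 rose 2.42-fold in K57N against WT cells, a log2 difference of 1.28 ± 0.26 (SE, n = 3 arrays per line), with an adjusted p of 0.0451 in limma without the slide and 5.4e-04 with it. The difference was 1.56 on slide 1 and 1.13 on slide 2. The call without the slide was close to the threshold. It was lost when any 1 of 8 arrays was left out, with adjusted p up to 0.174, and was kept without F53S replicate 1.

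MCL1, the short-lived survival protein that NOXA binds, was the other gene that was higher in K57N cells. Its probe lies at chr1:150547622-150547681 of hg19 on the minus strand. The level was 0.85, 1.21 and 1.09 in WT cells, 0.98, 1.34 and 1.28 in F53S cells, and 1.60, 1.89 and 1.83 in K57N cells, with no overlap between the K57N arrays and the others. The 3 replicates gave nearly the same difference from WT, 0.75, 0.68 and 0.74. MCL1 levels in K57N cells were 1.65 times those of WT, a log2 difference of 0.72 with SE 0.18 and adjusted p = 0.0880 without the slide. With the slide in the limma fit the SE was 0.08 and MCL1 rose, with an adjusted p of 0.0013.

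By its brighter probe, BMF had the largest difference of the 10 genes. It encodes a BH3-only protein that is held at the cytoskeleton through dynein light chains and released when cells detach. Its brighter probe, at chr15:40380450-40380509 of hg19 on the minus strand, measured 1.67, 0.48 and 0.61 in WT cells, 1.26, 0.31 and 0.23 in F53S cells, and -0.47, -0.69 and -0.64 in K57N cells. The K57N arrays lay below all others, and slide 1 was the higher slide in each line. BMF was 2.87-fold lower in K57N than in WT cells, a log2 difference of -1.52 ± 0.37 (SE) that missed the threshold without the slide (adjusted p = 0.0835). It fell with slide as a term, with an adjusted p of 0.0020 in limma. The difference was -2.13 on slide 1 and -1.21 on slide 2.

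The second BMF probe, at chr15:40383984-40384043 of hg19, did not show this difference. It is dim, at -4.26 to -2.92 in WT cells, and was well above background on 2 of 3 K57N arrays. Its K57N minus WT differences were -0.96, 1.85 and -0.99 in replicates 1 to 3, so replicate 2 alone was opposite in sign. The fitted log2 difference was -0.03 with SE 0.67 (adjusted p = 0.997 without the slide), an interval of -1.56 to 1.49 that includes the value of the brighter probe. With both probes averaged BMF differed by -0.78 (adjusted p = 0.608 in limma without the slide), which is less than the difference of PMAIP1. The statement on BMF therefore rests on 1 of 2 probes.

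BBC3, which encodes PUMA, a potent BH3-only protein that binds all of the main survival proteins, was lower in K57N cells on both slides. The probe at chr19:47724174-47724233 of hg19 on the minus strand measured 4.69, 3.43 and 3.50 in WT cells, 4.76, 3.40 and 3.40 in F53S cells, and 3.88, 2.85 and 2.92 in K57N cells. Pooled over slides the WT and K57N arrays overlapped, since slide 1 read higher in every line, but within each slide the K57N arrays were the lowest. The log2 difference from WT was -0.66, with SE 0.50 and adjusted p = 0.734 without the slide. With the slide in the fit the SE was 0.10, and BBC3 fell to 0.634 of its WT level with an adjusted p of 0.0046. With 1 array left out and no slide term, which unbalances the slides where the array is WT or K57N, the difference was -0.25 without WT replicate 1 and -0.99 without K57N replicate 1, and it was not called (adjusted p of at least 0.508).

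BCL2L1, the gene of the survival protein BCL-XL, was the survival gene that moved opposite to MCL1. Its probe at chr20:30253324-30253383 of hg19 was printed in 10 spots, which gave a within-array SD of 0.04 to 0.13 log2 units. The level was -0.81, -1.40 and -1.47 in WT cells, -0.93, -1.57 and -1.50 in F53S cells, and -1.53, -1.80 and -1.81 in K57N cells. The WT and K57N arrays were separate and K57N differed from WT by -0.72, -0.40 and -0.35 by replicate. The spot SD is technical only, and the SD between the WT arrays was 0.36. The fitted log2 difference was -0.49 ± 0.25 (SE, adjusted p = 0.482) without the slide. BCL2L1 fell with the slide in the limma fit, to 0.712 of the WT level (adjusted p = 0.0159). With 1 array left out and no slide term it was not called, with an adjusted p of at least 0.296, and the difference was -0.28 without WT replicate 1 and -0.61 without WT replicate 3.

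**Figure D2:**
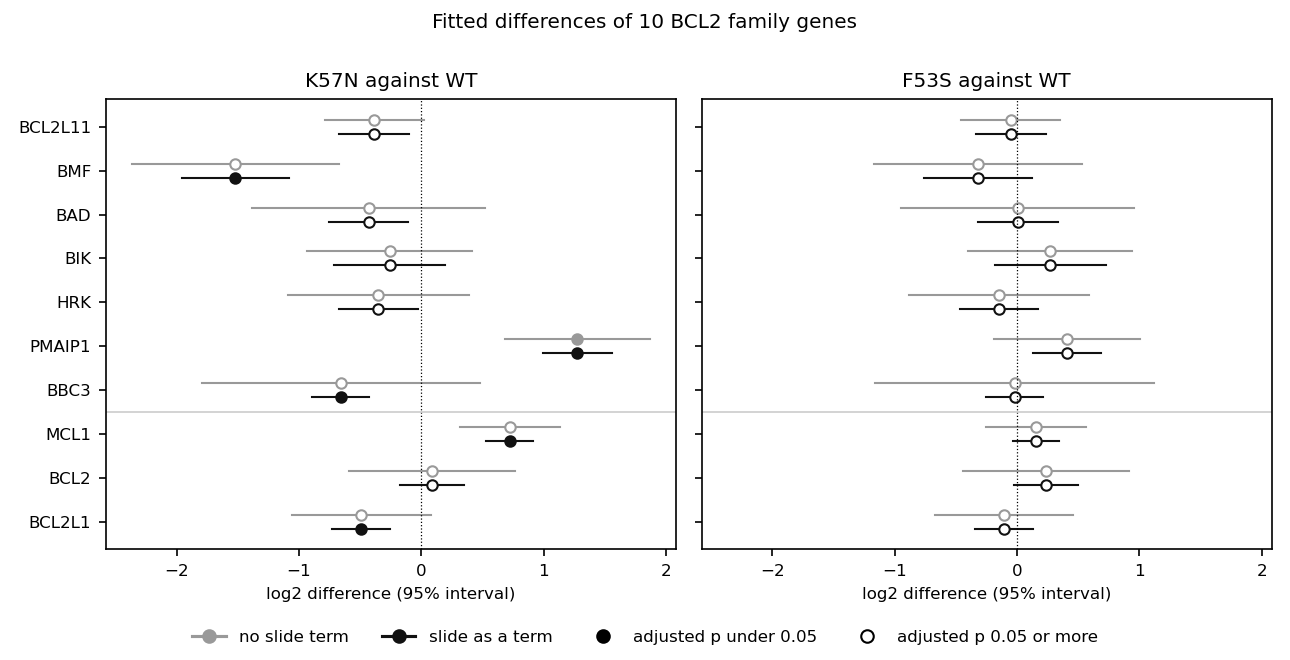
Fitted log2 differences (horizontal axis) of the 10 genes between K57N and WT cells (left) and F53S and WT cells (right), with 95% intervals. Gray is the limma fit without the slide and black the fit with it; filled symbols have an adjusted p below 0.05, which in the right panel no gene reaches.

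The other 5 genes were not called in K57N against WT cells in either fit. BCL2L11, the gene of BIM, an activator of BAX and BAK, had 3 probes that differed. The brightest, at chr2:111925892-111925951 of hg19, measured 2.12, 1.69 and 1.67 in WT cells, 1.93, 1.72 and 1.68 in F53S cells and 1.36, 1.48 and 1.49 in K57N cells, with no overlap between K57N and either line. Its difference from WT was -0.76 on slide 1 and -0.19 on slide 2. The adjusted p was 0.414 without the slide and 0.0683 with it, with a 95% interval of -0.67 to -0.10. In fits without the slide the log2 difference was -0.38, or -0.24 without WT replicate 1 and -0.16 with the gene's probes averaged. The probe at chr2:111886352-111886411 gave a log2 difference of 0.11 and that at chr2:111878705-111878764 one of -0.20, and neither was called.

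BAD, whose protein is inactivated by survival kinases, measured 4.17, 3.22 and 3.17 in WT cells, 4.38, 3.10 and 3.11 in F53S cells and 3.49, 2.83 and 2.95 in K57N cells with its brighter probe at chr11:64037483-64037542 of hg19. K57N was the lowest line on each slide. The log2 difference from WT was -0.43, with an adjusted p of 0.831 without the slide and 0.0694 with it. In fits without the slide it was -0.11 when WT replicate 1 was left out and -0.63 when K57N replicate 1 was. The second BAD probe was dimmer, at a mean of -1.86 in WT cells, but well above background on every array. It gave differences of -1.38, 0.70 and -0.42 by replicate.

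HRK, a BH3-only gene best known from neurons, was read by 2 probes. The one with the higher mean over all 9 arrays, at chr12:117299053-117299112 of hg19, measured 1.17, 0.78 and 0.71 in WT cells, 1.12, 0.59 and 0.50 in F53S cells and 1.24, 0.17 and 0.20 in K57N cells. Its difference from WT had opposite signs on the slides, 0.08 on slide 1 and -0.56 on slide 2. The other probe, at chr12:117293976-117294035 of hg19, is named for HRK in the annotation of slide 2 and for an uncharacterised locus, LOC283454, in that of slide 1. It measured 1.66, 0.84 and 0.94 in WT cells, 1.06, 0.52 and 0.53 in F53S cells and 0.88, -0.10 and -0.15 in K57N cells, and was thus lower in K57N cells on both slides. Its log2 difference was -0.93 (adjusted p = 0.265 without the slide and 0.0017 with it). HRK is counted among the genes not called, because the first probe stands for the gene here. This choice depends on the levels compared: the second probe had the higher mean in WT cells (1.14, against 0.89 for the first) and the lower in K57N cells (0.21, against 0.54), and with it HRK would be called in the fit with the slide.

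BIK, a BH3-only protein of the endoplasmic reticulum, measured -1.20, -1.78 and -1.86 in WT cells and -1.88, -1.97 and -1.77 in K57N cells at chr22:43525495-43525554 of hg19. The line means differed by less than the SD of the WT arrays, which was 0.36. BCL2, the survival gene that names the family, measured -2.68, -1.88 and -2.02 in WT cells, -2.50, -1.69 and -1.69 in F53S cells and -2.36, -1.98 and -1.98 in K57N cells. Its log2 difference of 0.09 had a 95% interval of -0.17 to 0.35 with the slide in the fit. The second BCL2 probe gave a log2 difference of 0.24 (adjusted p = 0.306 with the slide).

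**Figure D3:**
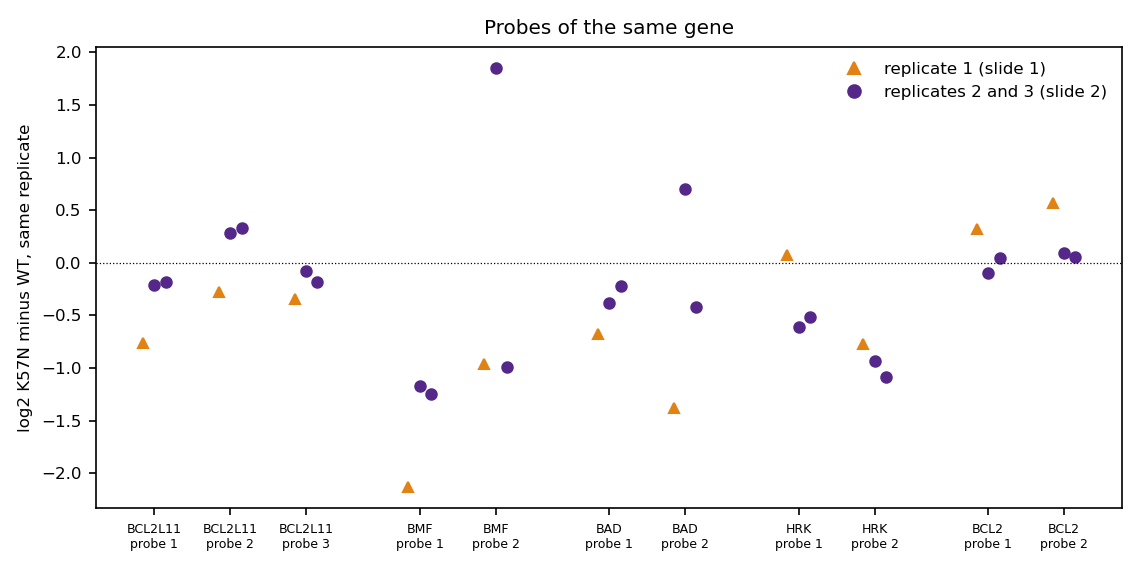
Log2 difference between K57N and WT arrays of the same replicate number (vertical axis) for each probe of the 5 genes with over 1 probe, the brightest probe first. Triangles are replicate 1 on slide 1 and circles replicates 2 and 3 on slide 2; replicate 2 of the second BMF probe, at 1.85, stands opposite to the other replicates.

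Across the replicates K57N was higher than WT in all 3 pairs for 2 genes, PMAIP1 and MCL1. It was lower in all 3 pairs for 5 genes, BCL2L11, BMF, BAD, BBC3 and BCL2L1. The share of all genes with 1 sign in all pairs is not given here, so these counts are not a result about the family. The K57N and WT arrays did not overlap for 5 of the 10 genes, compared with 22.9% of all genes. The difference was larger in size on slide 1 than on slide 2 for PMAIP1, BMF and BCL2L11, and also for the other 3 genes that were lower in all pairs. It was -0.72 and -0.37 for BCL2L1, -0.81 and -0.58 for BBC3, and -0.68 and -0.31 for BAD. For MCL1 it was 0.75 and 0.71.

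**Figure D4:**
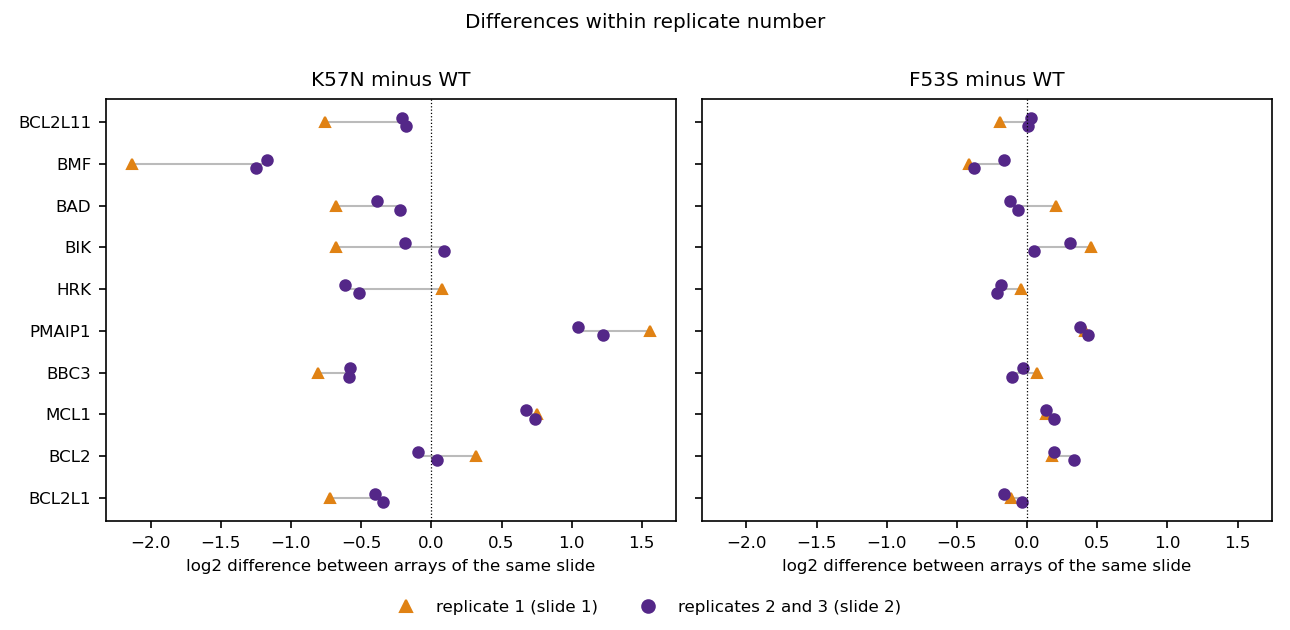
Log2 difference between arrays of the same replicate number (horizontal axis) for the 10 genes, K57N minus WT on the left and F53S minus WT on the right. Triangles are slide 1 and circles slide 2; BMF in K57N cells spans -2.13 to -1.17 while MCL1 spans 0.68 to 0.75.

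The regions upstream of the family genes were read to show what lies there, since promoters of BH3-only genes are known targets of FOXO and stress factors. RefSeq windows (GRCh38.p14) were at hand for 8 of the 10 genes, which leaves out MCL1 and BIK, and the 250 bases before each start were searched on both strands. BMF, BAD and BCL2L1 had 2 windows each, of which 1 lay at the outermost start of the gene. The only windows of BBC3 and BCL2 lay at a start inside the annotated gene. The motifs were GTAAACA of FOXO factors, TGACG as the core of the cAMP response element bound by ATF and CREB factors, TGANTCA of AP-1, CCGGAAG of ETS factors and GGGCGG of SP1. PMAIP1 and BMF are printed as the genes with the largest rise and fall, and BCL2L11, which was not called, for its FOXO match. Capitals mark the FOXO and cAMP response element letters on either strand. The windows are chr18:59899746-59899995 (plus strand) for PMAIP1, chr15:40108880-40109129 (minus strand) for BMF and chr2:111120664-111120913 (plus strand) for BCL2L11.
PMAIP1: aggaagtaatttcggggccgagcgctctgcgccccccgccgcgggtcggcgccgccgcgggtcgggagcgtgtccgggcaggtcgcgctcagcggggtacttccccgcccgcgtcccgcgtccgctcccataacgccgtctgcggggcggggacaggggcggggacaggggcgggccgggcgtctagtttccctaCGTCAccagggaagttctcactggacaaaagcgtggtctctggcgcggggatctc
BMF: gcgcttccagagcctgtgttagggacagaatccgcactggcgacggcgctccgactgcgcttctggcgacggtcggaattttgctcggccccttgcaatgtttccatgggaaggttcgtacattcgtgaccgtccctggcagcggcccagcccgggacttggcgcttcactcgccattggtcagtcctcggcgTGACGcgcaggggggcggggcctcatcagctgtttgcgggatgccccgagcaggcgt
BCL2L11: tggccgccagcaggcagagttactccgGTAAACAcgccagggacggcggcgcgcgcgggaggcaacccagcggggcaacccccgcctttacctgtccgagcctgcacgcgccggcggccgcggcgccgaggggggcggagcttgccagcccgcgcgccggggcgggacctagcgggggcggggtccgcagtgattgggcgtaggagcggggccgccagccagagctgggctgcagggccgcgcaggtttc
PMAIP1 and BMF, which moved in opposite directions, each held 1 TGACG match, at -55 and -57 from the start. BAD, HRK, BCL2 and BCL2L1 also held these letters, so they were found in called and uncalled genes alike, and the second window of BMF did not. They are in 21.2% of the 35116 promoter windows. BCL2L11 held the only GTAAACA match of the 8 genes, at -223, letters that 2.98% of all windows hold. PMAIP1 held 4 GGGCGG matches, BCL2L11 3, HRK 2, and BAD and the printed BMF window 1 each, where 42.6% of windows hold at least 1. BBC3 held a TGANTCA match at -113 (6.57% of windows), and none of the 8 genes held CCGGAAG (8.52%). None of the marked letters overlapped another motif in these windows. These are letters in a window, and no binding was measured.

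F53S cells were compared with WT cells to ask how the family stood with the RASopathy-associated mutant. No gene of the family was called in limma, either without the slide (0% of all genes called) or with it (0% of all genes). At an unadjusted p below 0.05, with each gene read by the probe that stands for it, the counts were 0 of the 10 genes without the slide (0.906% of all genes) and 1 with it, PMAIP1 (4.08% of all genes). PMAIP1 measured 0.41, 0.38 and 0.43 above WT in the 3 replicates, a 1.33-fold difference with a 95% interval of 0.13 to 0.69 log2 units and an adjusted p of 0.948 with the slide. With 1 array left out and no slide term its log2 difference lay between 0.19 and 0.63, and that of MCL1 between 0.05 and 0.26. MCL1 differed by 0.14, 0.13 and 0.19, with an interval of -0.04 to 0.34. BMF differed by -0.41, -0.17 and -0.38, with an interval of -0.76 to 0.12. F53S was higher than WT in all 3 pairs for 4 genes and lower for 3. These counts of signs have no share of all genes beside them and are not a result about the family. The F53S and WT arrays did not overlap for 0 of 10 genes, compared with 3.18% of all genes. By the same probes the differences of the other 7 genes lay between -0.15 and 0.27. The second HRK probe lay outside this range, at -0.60, -0.32 and -0.41 by replicate, a log2 difference of -0.44 with a 95% interval of -0.70 to -0.18 and an adjusted p of 0.711 in limma with the slide, and its F53S and WT arrays overlapped. The second BCL2 probe differed by 0.34, with an interval of -0.01 to 0.69.

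The difference between the mutants was tested directly in K57N against F53S cells, using the same K57N arrays as above. Without the slide 0 of the 10 genes was called (1.43% of all genes), and 3 had an unadjusted p below 0.05, compared with 10.4% of all genes. With the slide as a term 5 were called, 2 higher and 3 lower, against 13.4% of all genes (5.85% higher and 7.53% lower). With the replicate block 4 of 10 were called, without BCL2L1, against 8.94% of all genes. PMAIP1 was 1.83-fold and MCL1 1.48-fold higher in K57N cells, with adjusted p of 0.0047 and 0.0057 in limma with the slide. BMF was 2.30-fold, BBC3 1.56-fold and BCL2L1 1.30-fold lower (adjusted p = 0.0080, 0.0078 and 0.0483). In fits without the slide, leaving out F53S replicate 1 brought both BBC3 and BCL2L1 to -0.18 on the log2 scale, leaving out K57N replicate 1 brought BBC3 to -0.97, and averaging both BMF probes brought BMF to -0.58 (adjusted p = 0.868). Leaving out an array of these lines unbalances the slides in a fit without the slide. The arrays of the mutants did not overlap for 4 genes, PMAIP1, MCL1, BMF and BCL2L11, compared with 18.6% of all genes.

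The order of the lines for PMAIP1 and MCL1 was thus WT, F53S, K57N in each of the 3 replicates, and for BMF the reverse. With the slide in the limma fit the step from F53S to K57N was called for each of the 3 genes and that from WT to F53S was not, and the WT and F53S arrays overlapped. That fit called 0% of all genes in F53S against WT. DUSP6 was not called there although it was 7.45-fold higher (adjusted p = 0.0835 in limma with the slide). The missing call therefore does not show that the step from WT to F53S is absent. For BBC3 the WT and F53S levels differed by 0.07, -0.03 and -0.10 by replicate, and the K57N level stood apart on each slide.

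Genes around the family were read from lists of other relatives, of the steps after mitochondrial release and of the known regulators. Of 13 other BCL2 relatives 11 were tested, and 0 were called in K57N against WT cells in either limma fit, where 2.77% (without the slide) and 19.4% (with it) of all genes were; their median log2 difference was 0.10. The pore former BAX differed by -0.33 ± 0.24 (SE with the slide, adjusted p = 0.382) and BAK1 by -0.01 ± 0.17 (adjusted p = 0.982). BAX measured 3.02 in K57N replicate 1 and 3.54 and 3.48 in replicates 2 and 3, whereas WT replicate 1 was the highest WT array at 4.12. BID, the BH3-only link to death receptors, differed by 0.29 (adjusted p = 0.109), and the survival gene BCL2L2 by 0.17 (adjusted p = 0.453).

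Of 14 genes of the apoptosome, caspases and caspase inhibitors, 0 were called without the slide and 2 with it, both lower. This share of the list is below the 19.4% of all genes called in that fit and is not a result about the list. CASP10, an initiator caspase, fell by 0.40 on the log2 scale (adjusted p = 0.0263) and CASP6, an executioner caspase, fell by 0.48 (adjusted p = 0.0401). Against F53S cells, K57N cells had a higher level of CASP8, the initiator at death receptors, by 0.53 (adjusted p = 0.0429 with the slide). CASP6 was the other gene of the list called in that comparison, where 13.4% of all genes were called, and fell by 0.50 (adjusted p = 0.0453). For CASP6 the K57N level was 0.76 in replicate 1 and 1.20 and 1.22 in the others, all below the lowest WT array at 1.50.

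Of 9 genes of BIM and MCL1 turnover, PMAIP1 itself was called without the slide, where 2.77% of all genes were. With the slide, where 19.4% of all genes were called, 3 further genes fell: RPS6KA2, of the RSK family of kinases activated by ERK, some of which act in BIM degradation, by 0.70 (adjusted p = 0.0018), FBXW7, a ubiquitin ligase subunit that recognises MCL1, by 0.39 (adjusted p = 0.0197), and BTRC, the subunit that recognises phosphorylated BIM, by 0.33 (adjusted p = 0.0490). RPS6KA2 measured -0.19 to -0.49 in WT cells and -0.79 to -1.21 in K57N cells without overlap. RPS6KA2 and FBXW7 were also lower in K57N than in F53S cells with the slide (adjusted p = 0.0034 and 0.0306). PMAIP1 was called higher in that comparison, where 13.4% of all genes were called.

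Of 8 transcription factors known to control BH3-only genes, 0 were called without the slide and 1 with it, a share below the 19.4% of all genes called in that fit. JUN, a subunit of AP-1, fell by 0.39 (adjusted p = 0.0207). FOXO3, a known activator of BCL2L11 and BBC3, differed by -0.26 (adjusted p = 0.138) and FOXO1 by 0.16 (adjusted p = 0.211). DDIT3, the stress factor CHOP, measured 3.61 in K57N replicate 1 but -0.34 and -0.41 in replicates 2 and 3, against -0.79 to -0.26 in WT cells. ATF4, which induces DDIT3 and PMAIP1 under stress, measured 7.92 in K57N replicate 1 and 6.71 and 6.83 in the others. K57N replicate 1 was thus high for both stress factors, and the part of this in the larger slide 1 differences of PMAIP1 and BMF was not tested; without slide 1 the differences were 1.13 and -1.21, and both genes were called, with adjusted p of 0.0030 and 0.0019 in limma on the 6 arrays of slide 2.

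As a scale for all of these values, 10 of 10 readouts of ERK output passed the test as higher with K57N than with WT in both fits, where 1.74% (without the slide) and 8.58% (with it) of all genes did, with a median log2 difference of 4.17. In F53S against WT cells their median was 1.39, and 0 of 10 were called in either fit (0% of all genes).

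The genes whose pattern was most like that of PMAIP1 were sought among the 531 other genes called in K57N against WT cells without the slide. After the mean of each slide was removed, Pearson's r over the 9 arrays was 0.999 for SERPINB8, 0.999 for CCDC19 and 0.996 for EGR1. The arrays share their lines and slides, and the candidates were chosen for differing between the same lines, so these values describe the pattern and are not a test. The log2 differences of the 3 genes were 3.47, 1.01 and 5.29, compared with 1.28 for PMAIP1.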

How the data were processed

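Total RNA of 9 HEK293 cultures was labeled with Cy3 and hybridized to 1-color Agilent human arrays. Per the labels, slides were read with Agilent Feature Extraction 10.10.1.1. The authors deposited the processed signal of every array, a background-subtracted intensity with no scaling between arrays. They also deposited a log2 table, equal within 0.02 to the log2 of this signal less a constant per array for 99.55 to 99.76% of probes, whose scaling between arrays is not given in the sources used here. It served as an alternative.

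Control spots, and spots that the software marked uneven or outlying, were not used, repeated spots were averaged, and each array's 75th percentile was subtracted on the log2 scale. Of 50598 probes, 25400 were tested, being well above background on the 3 arrays of some line. Gene names are those of slide 2's annotation, positions are hg19 as the files give them, and the brightest probe by mean signal stands for a gene. The deposited files hold intensities and not reads, so no counting interval applies. limma 3.58.1 in R 4.3.3 fitted 1 mean per line. Its moderated test was adjusted by the Benjamini-Hochberg method, and the procedure was tested on simulated data. Figures used Python 3.11.15 and matplotlib 3.10.9.

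With line means removed, r across genes between same-numbered arrays was 0.341 to 0.871. No values for arrays of different numbers are given beside these, so they cannot show whether the numbers pair the arrays. Replicate 1 of each line shared slide 1, and the part of the slide in these values was not tested. Replicates come from separate experiments on 1 line each, and p-values measure the spread between these. All 10 family genes are described. Of the lists, genes called in a comparison are named, up to 4 a list, with MAP2K1 and DUSP6 as checks of the labels, and the 3 genes most like each member called in K57N against WT. BAX, BAK1, BID, BCL2L2, FOXO3, FOXO1, DDIT3 and ATF4 lie outside this rule and were named after their values were seen. Some genes and 1 list of the design are not reported here. The genes and lists were chosen with earlier results of these data known.

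Alternatives were quantile normalization, normexp with an offset of 50, dim probes kept, only probes above background on 9 arrays, a gene's probes averaged, fits of 2 lines, slide or replicate number as a block, slide 2 alone, the deposited table, the methods' t-test run on all probes tested with Benjamini-Hochberg adjustment, a limit of 2-fold, and leaving out each array.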

Additional observations from a re-analysis of the deposited data

Results flagged for a closer look

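The difference between the 2 mutants was past the threshold for 5 of the 10 genes when slide was a term in the limma fit, where 13.4% of all genes were called, and for 0 of them without it (1.43% of all genes). The log2 differences of K57N minus F53S were 0.87 for PMAIP1, 0.57 for MCL1, -1.20 for BMF, -0.64 for BBC3 and -0.38 for BCL2L1. In fits without the slide, BBC3 lay between -0.97 (without K57N replicate 1) and -0.18 (without F53S replicate 1), BCL2L1 reached -0.18 without F53S replicate 1, and BMF was -0.58 with its probes averaged. Leaving out a replicate 1 array of these lines unbalances the slides in such a fit. By replicate, BBC3 differed by -0.88, -0.55 and -0.48. In each of the 3 replicates the sign was the same for all 5 genes. BCL2L1 was the closest to the threshold, at an adjusted p of 0.0483, and was not called with the replicate block (0.0857).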

How the results depend on the processing

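The number of family genes called in K57N against WT, 1 without the slide, was 0 with normexp, quantile normalization, no filter on dim probes, the filter on all 9 arrays, only 2 lines, the deposited table and the methods' t-test, 5 with the replicate block or the slide block, 7 on slide 2 alone, and 0 to 2 when 1 array was left out; the 2 were PMAIP1 and BMF, without F53S replicate 1 (BMF adjusted p = 0.0426). In K57N against F53S it was 0, but 4 with the replicate block, 5 with the slide block and 5 on slide 2 alone. In F53S against WT it was 0 in all these fits. BAD and HRK were called lower than WT on slide 2 alone (adjusted p = 0.0370 and 0.0082). Genes called over the whole array in K57N against WT were 532, and 599 with quantile normalization and 551 with the deposited table, where the family count was 0, 268 with normexp, 164 with no filter, 342 with the filter on 9 arrays, 340 with 2 lines, 2836 with the replicate block, 3729 with the slide block, 4330 on slide 2 alone, 160 by the t-test and 207 to 714 when 1 array was left out. In K57N against F53S they were 275, and from normexp on 91, 68, 157, 125, 1717, 2571, 2927 and 49 in the same order and 73 to 285 without 1 array. In F53S against WT they were 0, and 1 with normexp, 2 on slide 2 alone and 0 to 3 without 1 array.

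The log2 difference of PMAIP1 in K57N against WT lay between 1.06 and 1.43 without 1 array and between 1.13 and 1.31 in the other alternatives, and its call was kept in 5 of 12 of these. No called difference changed sign. Signs of uncalled values did, also of BMF, BIK and BCL2 in F53S against WT, at -0.32, 0.27 and 0.23. In F53S against WT, BAD turned to -0.039 with the mean of probes, -0.014 with normexp, -0.043 with quantile normalization, -0.092 on slide 2 alone and, without 1 array, -0.42 to 0.33; BCL2L11 turned to 0.0010 with the mean of probes and 0.018 on slide 2 alone, and lay between -0.13 and 0.095 without 1 array. Without 1 array BBC3 lay between -0.47 and 0.39, BCL2 between -0.0076 and 0.51, BCL2L1 between -0.31 and 0.10, BIK between -0.029 and 0.51 and BMF between -0.65 and 0.054. In K57N against WT, BCL2 turned to -0.0023 with normexp and -0.026 on slide 2 alone and lay between -0.15 and 0.24 without 1 array. The fits without 1 array held no slide term, which unbalances the slides where the array is of a line compared. The cause of the sign changes was not tested. Arrays, 3 a line and 1 a line on slide 1, limit these values, and the second BMF and BAD probes are dim. The mean of the second BAD probe in WT cells was -1.86. Near it lay the probes used for BCL2 (-2.19) and BIK (-1.61) in WT cells and for BCL2L1 in K57N cells (-1.72).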
